A study of Mus musculus with 18 samples.

Results

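The Dlg scaffolds and the Dlg-associated proteins are 10 mouse genes, Dlg1 to Dlg5 and Dlgap1 to Dlgap5, and they were followed here in sorted intestinal stem cells with and without an induced deletion of Dlg1. They were found by matching the Ensembl identifiers of the deposited count tables to mouse GRCm38 gene symbols, and all 10 were among the 43432 identifiers. Gene expression was measured by poly(A) RNA sequencing of 18 libraries, each made from 5000 to 10000 sorted cells of mice aged 8 to 16 weeks. The groups were Dlg1 conditional knock-out at 14 days after tamoxifen (5 libraries), wild type at 14 days (5), Dlg1 conditional knock-out at 2 days, labelled as 48 hours (4), and wild type at 2 days (4). Tamoxifen was given to both genotypes. The sources used here do not give the strain, the Cre line, the deleted exons, the marker used for sorting or whether each library was a separate animal. The p-values therefore speak only of the spread among these libraries, which may be technical. The question put to these genes was whether paralogues of Dlg1 are expressed in these cells and whether they change when Dlg1 is deleted.

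DLG proteins are membrane-associated guanylate kinase (MAGUK) scaffolds. They carry PDZ domains, a Src homology domain and a guanylate kinase-like domain that no longer acts as an enzyme, and they hold receptors, channels and polarity proteins at cell junctions and synapses. DLG1 works with Scribble and the LGL proteins at the basolateral side of epithelial cells. The DLGAP proteins bind the guanylate kinase-like domain and link it to SHANK scaffolds at the postsynaptic density, except that DLGAP5, also called HURP, is best known as a microtubule-binding protein of the mitotic spindle.

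The coding sequences show how far the close paralogues can be told apart by sequence reads. A stretch of 90 coding bases is printed below because it holds the longest run of coding sequence that Dlg1 shares with any other member, 23 bases in common with Dlg4. Positions count from 1 at the first base of the start codon. The Dlg1 stretch covers coding bases 2248 to 2337 and lies in 2 coding exons at chr16:31857594-31857926, plus strand. The matching stretches are coding bases 2338 to 2427 of Dlg2 (chr7:92428604-92431031, plus strand), 2014 to 2103 of Dlg3 (chrX:100813384-100814238, plus strand) and 1768 to 1857 of Dlg4 (chr11:70042228-70042605, plus strand), each also split over 2 coding exons. All are GRCm38 reference sequence with GENCODE M21 gene models. Capitals in Dlg1 mark the 23-base run, and capitals in the others mark bases equal to Dlg1.
Dlg1: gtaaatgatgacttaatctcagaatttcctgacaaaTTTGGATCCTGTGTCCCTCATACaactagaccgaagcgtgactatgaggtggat
Dlg2: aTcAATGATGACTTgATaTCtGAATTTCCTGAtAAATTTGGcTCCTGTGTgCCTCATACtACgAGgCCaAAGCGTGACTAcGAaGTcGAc
Dlg3: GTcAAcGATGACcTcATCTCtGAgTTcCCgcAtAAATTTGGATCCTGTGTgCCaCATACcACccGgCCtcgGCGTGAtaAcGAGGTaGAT
Dlg4: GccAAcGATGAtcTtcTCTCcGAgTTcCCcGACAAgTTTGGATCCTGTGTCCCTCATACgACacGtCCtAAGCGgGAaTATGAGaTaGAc
Over this stretch Dlg2 equalled Dlg1 at 74 of 90 bases (82.2%), Dlg4 at 68 (75.6%) and Dlg3 at 67 (74.4%). The longest run identical to Dlg1 anywhere in the coding sequence was 20 bases in Dlg2, 17 in Dlg3 and 13 in Dlg5. Of 11065 distinct 50-base windows of annotated Dlg1 exons, 8 (0.0723%) also occurred in annotated exons of another member. That member was Dlg4, and nearly all windows of this length tell Dlg1 from its relatives.

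Libraries held 11.1 to 15.7 M counts at 14 days and 14.8 to 40.5 M at 2 days. Mitochondrial genes took 6.21% to 26.3% of them at 14 days and 26.1% to 49.1% at 2 days. A pair of libraries stood apart. Knock-out library 5 at 14 days had the lowest TMM-scaled total, 7011120 counts, while the remaining 14 day libraries held 10423700 to 17840600. At 2 days the largest count total and mitochondrial share were those of wild-type library 1. Levels are given as CPM, counts scaled to a common total by TMM within the table of each time, and levels of different genes are compared only per kilobase of exon. The sorted population was checked with 8 stem cell marker genes. All 8 averaged at least 1 CPM in every group, and their summed level ran from 2085 to 2961 CPM in knock-out and from 2325 to 3229 CPM in wild-type libraries at 14 days, and from 4217 to 5000 CPM in knock-out and from 4855 to 5570 CPM in wild-type libraries at 2 days. Markers of other epithelial types were present too. Goblet cell markers summed to 2102 to 10370 CPM in knock-out and 1484 to 5717 CPM in wild-type libraries at 14 days, and to 449.5 to 1307 CPM in knock-out and 493 to 663 CPM in wild-type libraries at 2 days. Enterocyte markers summed to 772 to 3293 CPM in knock-out and 804 to 5346 CPM in wild-type libraries at 14 days, and to 590 to 2498 CPM in knock-out and 607 to 744 CPM in wild-type libraries at 2 days. Paneth cell markers summed to 3197 to 5337 CPM in knock-out and 1977 to 15539 CPM in wild-type libraries at 14 days. Their medians were 4518 and 3091 CPM, and the stem cell marker medians were 2656 and 2728 CPM. The lists hold different genes and the sums are not scaled by length, so they do not rank the cell types. At 2 days Paneth markers summed to 643 to 1864 CPM in knock-out and 192 to 2935 CPM in wild-type libraries. Enteroendocrine markers reached at most 658 CPM and tuft cell markers at most 82.0 CPM in any library. In bulk libraries fewer cells of a type and less RNA per cell cannot be told apart.

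Of the 10 members, 6 were expressed well enough to be tested and 4 were near the limit of detection. Dlg1, Dlg3, Dlg5, Dlgap1, Dlgap4 and Dlgap5 passed the filter on low counts at both times. Dlg2, Dlg4, Dlgap2 and Dlgap3, whose products are best known from neuronal synapses, passed it at neither. Dlg2 had 10, 4, 3, 15 and 11 reads in knock-out libraries 1 to 5 at 14 days, against 2, 0, 2, 10 and 6 reads in wild-type libraries. No knock-out library had a read of it at 2 days, against 1 read in a single wild-type library. Reads of Dlg2 were therefore found in 9 of 10 libraries at 14 days and in 1 of 8 at 2 days. Over all genes, 20398 to 26773 had a count in each 14 day library, against 16073 to 18750 in each 2 day library. More genes were thus detected at 14 days in general, and the Dlg2 count is not particular to Dlg2. Dlg4 had 11, 1, 0, 6 and 4 reads in knock-out libraries at 14 days, against 6, 6, 0, 4 and 13 in wild-type libraries, and 1, 4, 1 and 2 reads in knock-out libraries at 2 days, against 4, 2, 2 and 10 in wild-type libraries. Its groups overlapped at both times. Dlgap2 had 5, 0, 0, 4 and 7 reads in knock-out libraries at 14 days, against 3, 0, 0, 9 and 1 in wild-type libraries, and at 2 days its only reads were 3 in knock-out library 1. Dlgap3 had 2, 2, 1, 0 and 3 reads in knock-out libraries at 14 days, against 0 in each wild-type library, and 4, 0, 0 and 2 reads in knock-out libraries at 2 days, against 0, 2, 0 and 0 in wild-type libraries. No Dlgap3 count at 14 days was above 3 reads. A count of 0 allows a level of up to 0.231 to 0.428 CPM in knock-out and 0.168 to 0.288 CPM in wild-type libraries at 14 days, and of up to 0.0835 to 0.184 CPM in knock-out and 0.109 to 0.173 CPM in wild-type libraries at 2 days. These limits use 3 counts per library and cover counting error only, since the reads carry no molecular identifiers. Of 8 neuronal and glial markers, 2 reached a mean of 1 CPM in each group. The summed level of that list was 2.48 to 11.1 CPM in knock-out and 4.22 to 13.9 CPM in wild-type libraries at 14 days, and 2.99 to 8.60 CPM in knock-out and 2.70 to 8.83 CPM in wild-type libraries at 2 days.

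**Figure D1:**
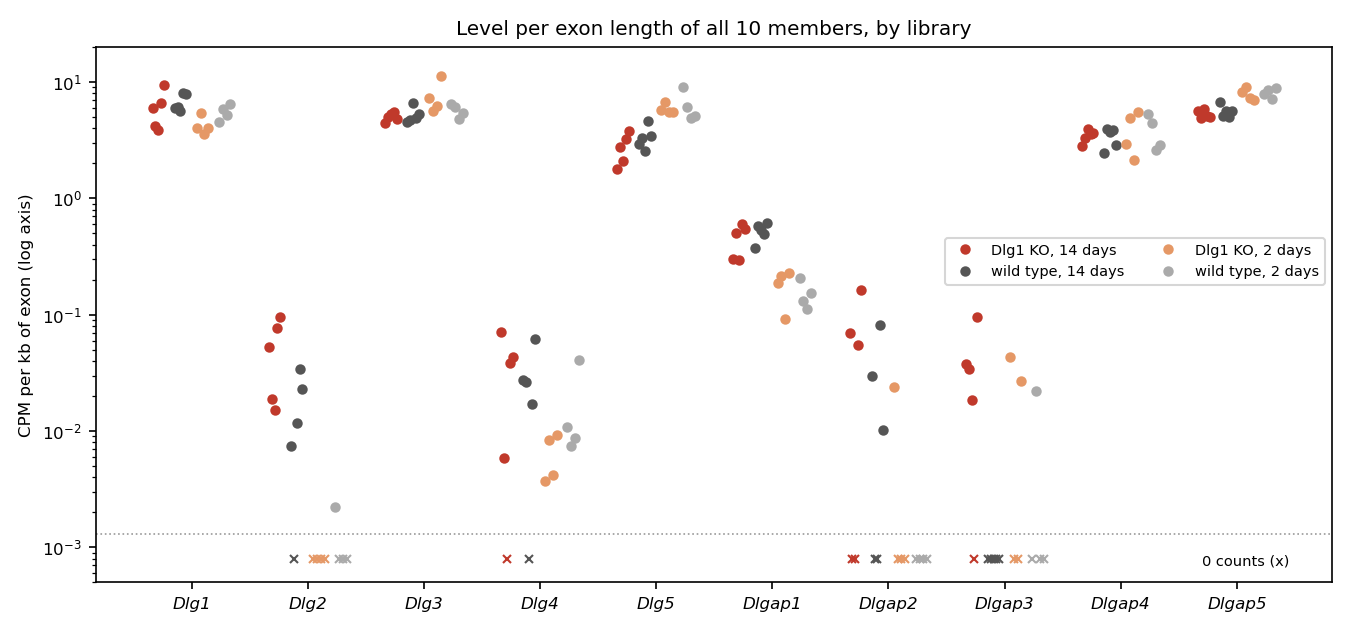
Level of each of the 10 members per library, in CPM per kilobase of exon on a log axis, with points coloured by group and crosses at the bottom for libraries with 0 counts. Dlg1, Dlg3, Dlg5, Dlgap4 and Dlgap5 lie within about the same decade, Dlgap1 lies below them in every group, and the other 4 members lie near or at 0.

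Per exon length, Dlg1 took place 1 of the members at 14 days and place 4 at 2 days, in both genotypes. At 14 days the mean level of Dlg1 was 5.99 CPM per kilobase in knock-out and 6.71 CPM per kilobase in wild-type libraries. At 2 days it was 4.26 CPM per kilobase in knock-out and 5.53 CPM per kilobase in wild-type libraries. At 14 days the order in both genotypes was Dlg1, Dlgap5, Dlg3, Dlgap4, Dlg5 and Dlgap1. Neighbours in that order overlapped between libraries, except that Dlg3 lay above Dlgap4 and Dlg5 lay above Dlgap1 without overlap. The step from Dlg5 down to Dlgap1 was 6.07-fold in knock-out and 6.52-fold in wild-type libraries. At 2 days the order was Dlgap5, Dlg3, Dlg5, Dlg1, Dlgap4 and Dlgap1 in knock-out libraries, with Dlg5 and Dlg3 in exchanged places in wild-type libraries. In knock-out libraries Dlg5 lay above Dlg1 without overlap, by 1.38-fold. In wild-type libraries Dlgap5, Dlg5, Dlg3, Dlg1 and Dlgap4 each overlapped the next. Dlgap4 exceeded Dlgap1 by 21.4-fold in knock-out and 25.1-fold in wild-type libraries at 2 days. Several of these places depended on the length used. With the longest annotated transcript in place of all exons, Dlg1 at 2 days took place 3 in knock-out and place 2 in wild-type libraries, and it stood above Dlg5 in knock-out libraries with overlap (7.44 and 6.36 CPM per kilobase). Dlgap4 and Dlg3 then overlapped at 14 days, at 6.02 and 5.85 CPM per kilobase in knock-out and 5.89 and 6.08 in wild-type libraries, with their order turned in the knock-out. The step from Dlg5 down to Dlgap1 became 2.63-fold in knock-out and 2.83-fold in wild-type libraries at 14 days, still without overlap. The step from Dlgap4 down to Dlgap1 at 2 days became 14.95-fold in knock-out and 17.5-fold in wild-type libraries.

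Dlg1 itself was not significantly lower in the knock-out at either time. It lies at chr16:31663443-31875129, plus strand (ENSMUSG00000022770). Its counts cover the whole gene, exons outside the deleted part included, so they check the labels only in part. At 14 days it stood at 64.0, 44.7, 41.8, 70.3 and 100.8 CPM in knock-out libraries and at 64.1, 65.5, 60.5, 85.8 and 84.1 CPM in wild-type libraries, and the groups overlapped widely. The log2 fold change was -0.17 ± 0.22 (SE; 95% interval -0.63 to 0.30, edgeR quasi-likelihood test, adjusted p = 0.964). At 2 days it stood at 43.3, 58.0, 38.4 and 43.1 CPM in knock-out libraries and at 48.3, 63.5, 56.3 and 69.5 CPM in wild-type libraries. There the values of 3 of 4 knock-out libraries were under the lowest wild-type value, with a log2 fold change of -0.38 ± 0.19 (SE; 95% interval -0.78 to 0.03, edgeR adjusted p = 0.866). A two-sided exact permutation test of log2 CPM gave p = 0.3889 at 14 days, where the smallest possible p is 0.007937, and p = 0.08571 at 2 days, where it is 0.02857. Averaged over both times in 1 fit of all libraries, the log2 fold change was -0.28 ± 0.15 (SE; 95% interval -0.60 to 0.03, edgeR adjusted p = 0.833). Leaving out knock-out library 5 at 14 days, the highest of its group, moved the 14 day value to -0.40. It was closer to 0 when knock-out library 2 or 3 (-0.06) or wild-type library 4 or 5 (-0.10) was left out. Arhgap31, a gene the series names and one picked here after its values were seen, ran from 0.602 to 2.90 CPM in knock-out and from 6.61 to 13.0 CPM in wild-type libraries at 14 days. Its 2 day range was 0.246 to 0.829 CPM in knock-out and 1.67 to 5.94 CPM in wild-type libraries. The genotypes did not overlap at either time, which was true of 0.529% of genes at 14 days and 3.98% at 2 days. Since the gene was picked after its values were seen, this is no test of the labels. Arhgap31 is also no count of the deleted exons and does not replace one. The 14 day columns carry a letter, B or J, in their names. The log2 fold change was -0.27 within the libraries of letter B (2 per genotype) and -0.12 within those of letter J (3 per genotype), a split made after seeing the data.

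**Figure D2:**
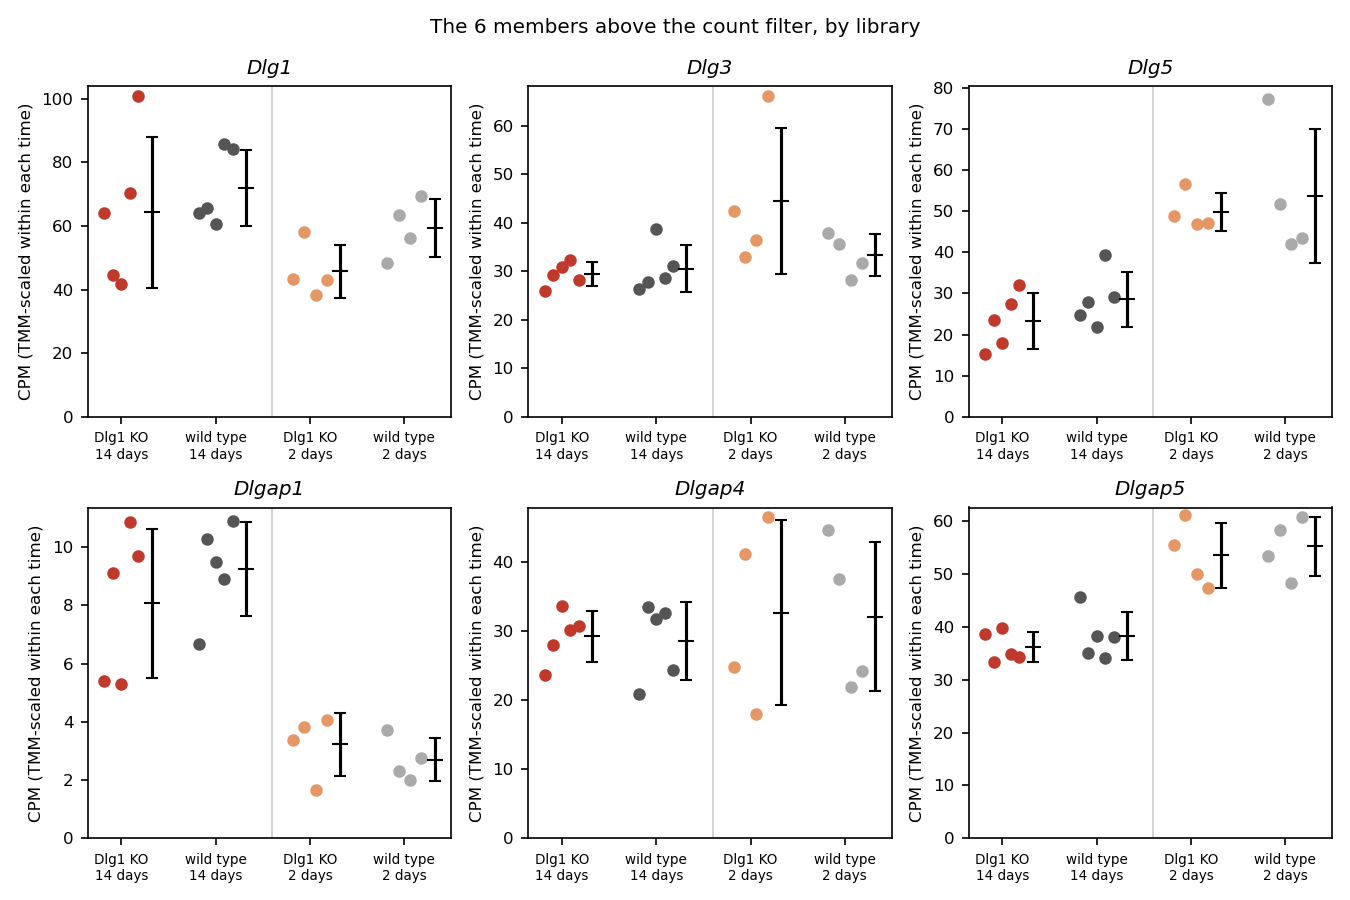
CPM of the 6 members above the count filter, 1 point per library, with group mean and SD beside the points. Knock-out and wild-type libraries overlap at each time for all 6 members, and Dlg5 and Dlgap5 sit lower at 14 days than at 2 days while Dlgap1 sits higher, on scales set within each time.

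Among the paralogues of Dlg1, Dlg3 was the main other scaffold of the closely related group, and neither it nor Dlg5 passed the test for a change. Dlg3, an X-linked scaffold known for receptor transport in neurons, lies at chrX:100767722-100818410, plus strand. At 14 days it stood at 25.9, 29.3, 30.9, 32.4 and 28.2 CPM in knock-out libraries and at 26.4, 27.7, 38.7, 28.6 and 31.2 CPM in wild-type libraries. The groups overlapped, with a log2 fold change of -0.05 ± 0.16 (SE; 95% interval -0.39 to 0.28, edgeR adjusted p = 0.982). The 2 day values were 42.4, 32.9, 36.4 and 66.2 CPM in knock-out libraries and 37.9, 35.6, 28.2 and 31.7 CPM in wild-type libraries. Knock-out libraries 1 and 4 were above every wild-type library and the other two were within their range. The log2 fold change was 0.41 ± 0.23 (SE; 95% interval -0.09 to 0.92), at an unadjusted p of 0.100 and an adjusted p of 0.866 by edgeR. Without knock-out library 4 it was 0.16. The fold at 2 days was 1.33, with a 95% interval of 0.938 to 1.89. The difference between the 14 day and the 2 day effect was -0.48 ± 0.27 (SE) on the log2 scale (edgeR adjusted p = 0.845), and -0.22 without knock-out library 4 at 2 days. The X-linked transcript Xist was above 100 CPM in 2 of 5 knock-out and 2 of 5 wild-type libraries at 14 days. At 2 days it was above 100 CPM in 2 of 4 knock-out and 2 of 4 wild-type libraries. High libraries were thus equally many in both genotypes. Those at 2 days were knock-out libraries 3 and 4 and wild-type libraries 1 and 2. Whether Dlg3 goes with Xist was not tested.

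Dlg5, the longest and most divergent of the scaffolds, lies at chr14:24133953-24245920, minus strand. At 14 days it stood at 15.3, 23.5, 17.9, 27.5 and 32.1 CPM in knock-out libraries and at 24.8, 28.0, 21.8, 39.4 and 29.1 CPM in wild-type libraries. Knock-out libraries 1 and 3 were below every wild-type library, and the log2 fold change was -0.30 ± 0.22 (SE; 95% interval -0.78 to 0.17, edgeR adjusted p = 0.964). With 1 library left out it ran from -0.46 (without knock-out library 5) to -0.16 (without wild-type library 4), and it was -0.19 without knock-out library 1. Values at 2 days were 48.9, 56.7, 46.9 and 47.2 CPM in knock-out libraries and 77.4, 51.8, 42.1 and 43.5 CPM in wild-type libraries. The knock-out libraries all lay inside the wild-type range, whose top was wild-type library 1, the library with the highest mitochondrial share at 49.1%. The log2 fold change was -0.11 ± 0.21 (SE; edgeR adjusted p = 0.945), and it was 0.12 without that library.

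The share of Dlg1 among the closely related scaffolds overlapped between genotypes. Of the summed level per exon length of Dlg1 to Dlg4, Dlg1 made up 52.7 ± 9.22% in knock-out and 55.9 ± 5.99% in wild-type libraries of the 14 day table (SD, n = 5 each). At 2 days it made up 36.8 ± 9.33% in knock-out and 49.1 ± 5.85% in wild-type libraries (SD, n = 4 each). The 2 day shares ran from 26.2% to 48.9% in knock-out and from 40.9% to 54.2% in wild-type libraries. Dlg3 made up nearly all of the rest. The summed level was 11.1 ± 2.21 CPM per kilobase in knock-out and 12.0 ± 1.22 in wild-type libraries at 14 days, and 11.9 ± 2.41 in knock-out and 11.3 ± 0.912 in wild-type libraries at 2 days. These shares combine the values of Dlg1 and Dlg3 above and were not tested. They also depend on the length used. With the longest annotated transcript, Dlg1 and Dlg3 averaged 10.5 and 5.85 CPM per kilobase in 14 day knock-out libraries. The 14 day wild-type means were 11.7 and 6.08 CPM per kilobase. At 2 days the means were 7.44 and 8.86 in knock-out and 9.67 and 6.65 in wild-type libraries.

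**Figure D3:**
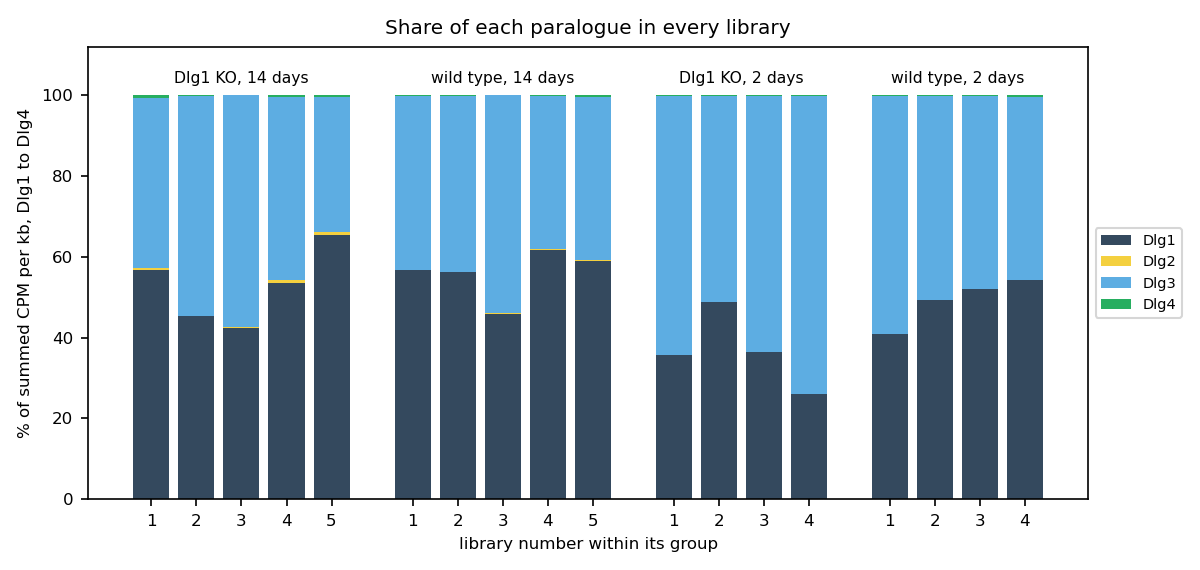
Share of Dlg1, Dlg2, Dlg3 and Dlg4 in their summed CPM per kilobase of exon, in percent, as 1 stacked bar per library. Dlg1 and Dlg3 fill the bars in every library. The Dlg1 share averages 36.8% in knock-out and 49.1% in wild-type libraries at 2 days, with overlap. The shares depend on the length used.

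The levels of the 3 expressed Dlgap genes also overlapped between genotypes at both times. Dlgap1, an adaptor that ties MAGUK scaffolds to SHANK proteins at synapses, lies at chr17:69969073-70821413, plus strand. At 14 days it stood at 5.41, 9.10, 5.30, 10.9 and 9.70 CPM in knock-out libraries and at 6.67, 10.3, 9.50, 8.91 and 10.9 CPM in wild-type libraries (log2 fold change -0.20, standard error 0.27, edgeR adjusted p = 0.964). The 2 day values, scaled within that time, were 3.37, 3.81, 1.66 and 4.05 CPM in knock-out libraries and 3.73, 2.33, 2.01 and 2.75 CPM in wild-type libraries. The log2 fold change there was 0.25 ± 0.47 (SE), with a 95% interval of -0.78 to 1.28, the widest of the 6 members. With 1 library left out it ran from 0.12 (without knock-out library 4) to 0.45 (without knock-out library 3), reaching 0.16 without knock-out library 2 and 0.13 when wild-type library 3 was dropped. Without wild-type library 1 it was 0.44. Dlgap4, a relative of the same adaptor family with a wider tissue distribution, lies at chr2:156613705-156764363, plus strand. At 14 days it stood at 23.6, 27.9, 33.6, 30.2 and 30.7 CPM in knock-out libraries and at 20.9, 33.4, 31.7, 32.6 and 24.3 CPM in wild-type libraries. It varied more at 2 days, at 24.8, 41.1, 18.02 and 46.4 CPM in knock-out libraries and at 44.6, 37.4, 21.9 and 24.2 CPM in wild-type libraries. Its log2 fold changes were 0.03 at 14 days (95% interval -0.34 to 0.41) and 0.02 at 2 days (95% interval -0.68 to 0.72). Dlgap5, which stabilizes spindle microtubules near chromosomes, lies at chr14:47387779-47418407, minus strand. At 14 days it stood at 38.6, 33.4, 39.8, 35.0 and 34.2 CPM in knock-out libraries and at 45.6, 35.0, 38.3, 34.1 and 38.1 CPM in wild-type libraries. Its 2 day values were 55.5, 61.2, 50.04 and 47.3 CPM in knock-out libraries and 53.4, 58.3, 48.3 and 60.8 CPM in wild-type libraries. It was the member with the narrowest intervals, with a log2 fold change of -0.08 (95% interval -0.38 to 0.22) at 14 days and -0.04 (95% interval -0.39 to 0.30) at 2 days.

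**Figure D4:**
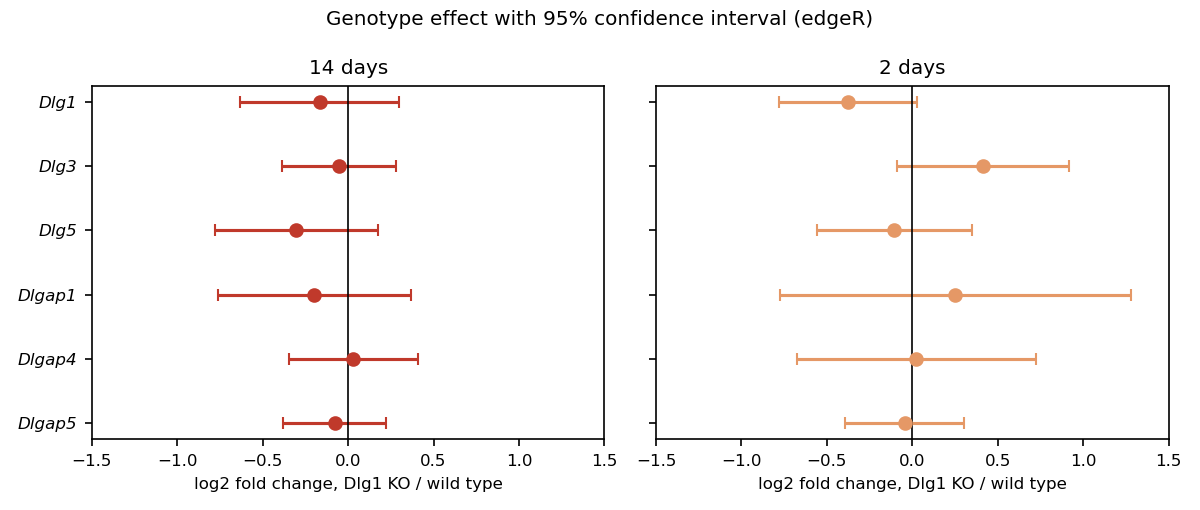
Log2 fold change of Dlg1 knock-out over wild type for the 6 tested members, with points for the edgeR estimate and bars for its 95% confidence interval, at 14 days on the left and 2 days on the right. Every interval spans 0, and the estimates farthest from 0 are those of Dlg5 at 14 days (-0.30) and of Dlg3 (0.41) and Dlg1 (-0.38) at 2 days.

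Counted together, 0 of the 6 tested members passed at an adjusted p under 0.05 by edgeR at either time, in the average over times or in the difference between times. DESeq2 and limma voom also called 0 of them in each. At an unadjusted p under 0.05 edgeR called 0 of 6 in each as well. That count rested on settings for the average of Dlg1, whose unadjusted p of 0.0718 became 0.0408 without the filter on low counts, 0.0383 with limma voom, 0.0106 without knock-out library 5 at 14 days, 0.0320 without knock-out library 2 at 2 days and 0.0375 without wild-type library 1 at 2 days. At 2 days Dlg1 had an unadjusted p of 0.0189 without knock-out library 2 and 0.0139 without wild-type library 1. For Dlg3, leaving out knock-out library 2 at 2 days gave an unadjusted p of 0.0459 at 2 days and 0.0433 in the difference. None of these passed after adjustment (adjusted p from 0.658 to 0.909). Without the filter Dlgap3, which was not among the 6, had an edgeR unadjusted p of 0.0062 at 14 days and 0.0072 in the average. Its adjusted p was 0.671 and 0.650, and no library had more than 4 reads of it. Over all genes the adjusted threshold called 0.0% of 13991 genes at 14 days and 0.0% of 13031 at 2 days, against 1 and 13 genes by DESeq2 and 0 by limma voom. It called 0.00647% of 15458 genes in the average and 0.0% in the difference. The unadjusted threshold called 3.93% at 14 days, 4.92% at 2 days, 5.74% in the average and 5.98% in the difference. In 0.529% of genes at 14 days and 3.98% at 2 days the genotypes did not overlap, and no tested member was among these. The members' counts thus stand on a background in which almost no gene was called. Within the 14 day libraries of letter B and of letter J the log2 fold changes were 0.01 and -0.10 for Dlg3, -0.47 and -0.23 for Dlg5, -0.24 and -0.18 for Dlgap1, -0.10 and 0.09 for Dlgap4, and -0.18 and -0.02 for Dlgap5, and none passed.

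Known partners of these proteins and related genes gave the same count of calls. At 14 days 0 members of each of 5 partner lists passed at either threshold. The first was 12 other MAGUKs tested, with a median log2 fold change of -0.04. The next were the 3 Scribble and LGL genes (-0.14) and 15 genes whose proteins bind DLG1 (-0.05). Another held 10 synaptic genes, among them partners of the DLGAP proteins (0.11). The last held 15 genes of mitosis and dividing cells, among them spindle genes that work beside Dlgap5 (-0.04). The median over all genes was 0.0056. At 2 days 0 members passed after adjustment in any of the lists, and all-gene background stood at a median of 0.0095. Of 15 genes of mitosis and dividing cells 12 had a negative log2 fold change at 2 days, with a median of -0.28. Of the same 15, 3 were lower at an unadjusted p under 0.05, against 2.22% of all genes lower. These were Top2a, a topoisomerase of dividing cells, at -0.40 ± 0.17, Kif11, a spindle motor, at -0.41 ± 0.17, and Cenpf, a kinetochore protein, at -0.46 ± 0.20 (SE). Each had an edgeR adjusted p of 0.866. Beside this list, the median log2 fold change at 2 days was -0.28 for stem cell markers (6 of 8 negative). It was 1.53 for enterocyte markers (8 of 8 positive) and 0.67 for goblet cell markers (6 of 6 positive). The part of these markers in the values of the mitosis list was not tested. At 14 days the median was -0.59 for enterocyte markers (8 of 8 negative) and 0.57 for goblet cell markers (6 of 6 positive). Of 13 other MAGUKs 1 was higher and 1 lower at an unadjusted p under 0.05, namely Mpp2 at 2.37 ± 1.07 and Mpp6 at -0.49 ± 0.19 (SE), against 2.7% of all genes higher and 2.22% lower. Of 14 genes whose proteins bind DLG1, only Apc, the tumour suppressor that binds its PDZ domains, had an unadjusted p under 0.05, at -0.38 ± 0.17 (SE). Of 9 synaptic genes only Homer2, a scaffold, did, at -0.38 ± 0.18 (SE). The 3 Scribble and LGL genes had a median of 0.32, with Scrib at 0.36 ± 0.33 (SE).

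Between the times Dlg5, Dlgap5 and Dlg3 were lower and Dlgap1 higher at 14 days in wild-type libraries. Thus 4 of the 6 tested members passed between 14 and 2 days, on a background of 53.2% of 15458 genes called (27.6% higher and 25.6% lower at 14 days) by edgeR. With so many genes called, the count is not a result about the members. Each time is a separate table, so time after tamoxifen and a run or cohort of animals cannot be told apart. Values here are CPM on 1 scale for all 18 libraries, and the median log2 fold change of all genes was 0.12 with TMM, 0.17 with RLE and 0.25 with upper-quartile scaling. Dlg5 had 22.4, 24.7, 19.2, 35.8 and 24.8 CPM in the 14 day wild-type libraries and 91.5, 60.5, 49.7 and 52.3 CPM in the 2 day ones. The groups did not overlap, which was true of 42.8% of genes, and Dlg5 was lower at 14 days by a log2 fold change of -1.34 ± 0.22 (SE; edgeR adjusted p = 2.54e-05), or -1.46 relative to the median of all genes. Dlgap5 stood at 41.1, 30.9, 33.7, 31.0 and 32.4 CPM at 14 days and at 63.2, 68.2, 57.1 and 73.0 CPM at 2 days. It did not overlap either and was lower at 14 days by -0.96 ± 0.15 (SE; edgeR adjusted p = 9.51e-06), or -1.08 relative to the median. Dlgap1 ran the other way, at 5.997, 9.07, 8.35, 8.10 and 9.28 CPM at 14 days and at 4.41, 2.72, 2.38 and 3.31 CPM at 2 days. It was higher at 14 days without overlap, by 1.34 ± 0.35 (SE; edgeR adjusted p = 0.00268), or 1.22 relative to the median. Dlg3 stood at 23.8, 24.5, 34.0, 26.0 and 26.6 CPM at 14 days and at 44.8, 41.6, 33.3 and 38.1 CPM at 2 days. It was lower at 14 days by -0.56 ± 0.19 (SE; edgeR adjusted p = 0.0185), or -0.68 relative to the median, and it no longer passed with upper-quartile scaling (adjusted p = 0.0658) or without the filter on low counts (adjusted p = 0.0543). Dlgap4 was at -0.59 ± 0.25 (SE) and did not pass (edgeR adjusted p = 0.0540), and neither did Dlg1 at -0.15 ± 0.21 (SE; edgeR adjusted p = 0.573). Dlgap4 passed when any 1 of knock-out libraries 3 and 4 or wild-type libraries 3 and 4 at 2 days was left out, at adjusted p from 0.0252 to 0.0458. The knock-out libraries, which this test did not use except for the spread, averaged 19.9 ± 5.09 CPM of Dlg5 at 14 days (SD, n = 5) and 58.9 ± 7.64 CPM at 2 days (SD, n = 4). They averaged 31.2 ± 3.50 CPM of Dlgap5 at 14 days and 63.3 ± 9.73 CPM at 2 days, 6.91 ± 2.10 CPM of Dlgap1 at 14 days and 3.797 ± 1.27 CPM at 2 days, and 25.3 ± 2.74 CPM of Dlg3 at 14 days and 51.9 ± 15.3 CPM at 2 days (SD, n = 5 and n = 4).

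Genes of the partner lists were called between the times in wild-type libraries too, on the same background of 53.2% of all genes called, so these counts are not a result about the lists. Of 15 genes of mitosis and dividing cells 7 were lower and 1 higher at 14 days after adjustment. Among the lower ones were Kif11 at -1.83, the proliferation marker Mki67 at -1.58 and the checkpoint kinase Bub1 at -1.31. Of 13 other MAGUKs 5 were lower and 1 higher, with the tight junction scaffold Tjp1 at -2.18, Magi1 at -1.43 and Cask at -1.08. Of 17 genes whose proteins bind DLG1, 8 were lower and 2 higher, and of 13 synaptic genes 6 were lower and 3 higher. Of the 3 Scribble and LGL genes Llgl2 was higher at 0.89 while Scrib at 0.43 and Llgl1 at 0.27 did not pass. Over all genes 25.6% were lower and 27.6% higher. Stem cell markers moved with the times too, since 5 of 8 were lower at 14 days after adjustment and 5 of 6 goblet cell markers were higher. Their part in the changes of the members was not tested.

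The genes whose levels followed each member most closely were found from deviations from the 4 group means over the 18 libraries, among 8907 protein-coding genes. These correlations share library, depth and scaling and are given as a description. The named genes were the highest of 8907 values over only 18 libraries, and such a search can reach a high r without any link. For Dlg1 they were Nlrc4 (Pearson r = 0.86), Myo1e (0.86), Gys1 (0.85), Bclaf3 (0.83) and Fat1 (0.82). For Dlg3 the closest was Kbtbd7 (r = 0.85), followed by Atg14 and Rmi1 at 0.77 each. For Dlg5 it was R3hdm1 (r = 0.92), followed by Adar (0.90) and Rai1 (0.88). For Dlgap1 it was Ubn2 (r = 0.92), followed by Zranb1 (0.90) and Utrn (0.87), and for Dlgap4 it was Csnk1e (r = 0.85), followed by Tex9 (0.85) and Uvssa (0.84). Dlgap5 had a weaker nearest match, the kinetochore gene Ndc80 (r = 0.77), followed by Zfp53 and Tbc1d15 at 0.73 each.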

How the data were processed

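The authors deposited whole-number read counts per Ensembl gene, 1 unnormalized table per time. The tools were STAR 2.4.2a and bcl2fastq 2.20.0.422 with build GRCm38, per the submitters' processing notes. The annotation, counting program and strand setting were not given in the sources used here, so reads of genes with overlapping exons are uncertain (at most 1.48% of a member's exon bases, in Dlg5). Columns headed Dmin at 2 days were taken to mean Dlg1 minus (knock-out), on which all 2 day comparisons rest. Columns carry no replicate numbers. Libraries were numbered by their place in the table, which pairs nothing. Symbols came from GENCODE M21 (42548 of 43432 identifiers).

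Each time was fitted with edgeR 4.0.16 in R 4.3.3 on all genes (filterByExpr, minimum count 10, TMM, robust quasi-likelihood test, Benjamini-Hochberg over all genes, threshold 0.05). The average over times, the difference and wild type 14 against 2 days came from 1 fit of 18 libraries. The code was tested on simulated data. Permutation tests used log2(CPM + 0.5). DESeq2 1.42.0 and limma 3.58.1 were alternatives. Exon length was the union of annotated exons. Genes named were all members, up to 3 of smallest unadjusted p per list and time, and the closest genes by correlation (5 for Dlg1, 3 for the others) with average log2 CPM of at least 3. The members, lists and tests were chosen with earlier results of these data known.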

Additional observations from a re-analysis of the deposited data

Results flagged for a closer look

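Among 37 groups of library values of the members, 4 held a library set apart from the rest, and all 4 lay near the limit of detection. In knock-out libraries at 2 days, library 1 alone had reads of Dlgap2 (0.1466 CPM, 3 reads). In wild-type libraries at 2 days, library 1 alone had a read of Dlg2 (0.0362 CPM, 1 read) and library 2 alone had reads of Dlgap3 (0.099 CPM, 2 reads). Library 4 of that group had 0.5396 CPM of Dlg4 (10 reads), where the next library had 0.1448 CPM. Chance sets a library apart in about 1 of 20 groups of normally distributed values, which CPM values need not be. That rate does not hold for the first 3 of these, where every other library of the group had 0 reads and any single read sets a library apart.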

How the results depend on the processing

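No paired analysis was possible because the columns carry no replicate numbers. In every setting run (RLE, upper-quartile or no mitochondrial genes, no filter, a minimum count of 50, DESeq2, limma voom, all groups in 1 fit, each library left out, and, added after seeing the data, the column letter as a block or B or J alone), 0 members were called between genotypes. The Dlg1 estimate kept its negative sign, at -0.40 to -0.06 at 14 days and -0.51 to -0.29 at 2 days with 1 library left out. Signs of small member effects turned. For Dlgap4 the 14 day value became -0.0323 without a filter and -0.10 with letter B, and ran from -0.0634 to 0.0978 with 1 library left out. Its 2 day value became -0.0231 with voom and ran from -0.19 to 0.22. Its difference between times became 0.0258 with RLE, 0.0257 with DESeq2, 0.0113 without mitochondrial genes and 0.0565 with voom and ran from -0.20 to 0.21, and its average from -0.0898 to 0.12. The Dlgap1 average became -0.0253 with voom and ran from -0.0545 to 0.12. Dlg3 at 14 days became 0.0093 with letter B and ran from -0.10 to 0.0441. Dlg5 at 2 days ran from -0.21 to 0.12, Dlgap5 at 2 days from -0.12 to 0.0098 and its difference from -0.0984 to 0.0343. Counts of all genes called became 8 without a filter, 1 with DESeq2 and 1 with letter B at 14 days. At 2 days they became 13 with DESeq2, 1 with all groups in 1 fit and 0 to 1 with 1 library left out (1 without wild-type library 3). In the average they became 7 with DESeq2 and 1 to 2 with 1 library left out (2 without knock-out library 5 or wild-type library 3 at 14 days, or wild-type library 3 at 2 days). In the difference they became 1 without a filter, 13 with DESeq2 and 0 to 1 with 1 library left out (1 without wild-type library 3 at 2 days). With the longest transcript as length, Dlg1 took place 3 in knock-out and 2 in wild-type libraries at 2 days. Between the times in wild type, members called ran from 4 to 6 with 1 library left out, since Dlg2 passed both filter and test in 5 of these fits (adjusted p from 0.0287 to 0.0309). They left out wild-type library 1 or any 1 knock-out library at 2 days. Leaving out a knock-out library changes no wild-type reads, so these fits are not separate support. Without wild-type library 2, 3 or 4 at 2 days Dlg2 did not pass the test (edgeR adjusted p from 0.0692 to 0.0729). With the filter, Dlg2 entered only where a 2 day group was 1 library smaller, which lowers the number of libraries the filter asks for. Without a filter Dlgap2 passed (adjusted p = 0.0472) while Dlg3 did not. Other causes of these shifts were not tested. Counts of at most 15 reads limit what Dlg2, Dlg4, Dlgap2 and Dlgap3 can show.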

Other observations

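Within the groups the correlations between members had both signs. Over the 18 libraries, with group means removed, the Pearson r of log2 CPM between Dlg1 and Dlg3 was -0.22, between Dlg1 and Dlg5 0.41 and between Dlg5 and Dlgap1 0.62. Dlgap1 and Dlgap4 had an r of 0.63 and Dlg3 and Dlgap4 one of 0.54. It was 0.44 both for Dlg5 with Dlgap4 and for Dlg3 with Dlgap1, and 0.35 for Dlg1 with Dlgap1. Dlg1 with Dlgap4 (0.05) and Dlg3 with Dlg5 (0.04) had low values. Dlgap5 had values from -0.32 with Dlg5 to 0.02 with Dlg1. These share library, depth and scaling and are descriptions.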
